A study of Mus musculus with 4 samples.

Results

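Imprinted genes are genes of which mainly 1 parental copy is transcribed, because DNA methylation laid down in the egg or in the sperm marks the copies differently. Most of them lie in clusters in which a methylated control region acts on several neighbours, and many act on embryonic growth: genes expressed from the paternal copy often promote growth and genes expressed from the maternal copy often restrain it. The gonad is the tissue in which these marks are erased and laid down anew, in its germ cells, while the somatic cells around them keep the marks. Members were the 36 genes whose symbols equal those on a list of well-known imprinted genes, out of 40999 features counted in each library, and they were grouped by cluster and by the copy known to be expressed, 17 maternal and 19 paternal. The copy is background knowledge: all animals were of 1 inbred strain, so no allele was measured here.

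Total RNA from gonads of wild-type C57BL/6J mouse embryos was depleted of ribosomal RNA and sequenced, to follow long and short RNAs. The embryos were of 4 ages a day apart, E11.5 to E14.5, the days over which the sexes of the gonad become distinct. At each day, XX and XY gonads, at least 6 of each, were pooled from 6 or more embryos and made into 1 library. Differences between the sexes are therefore not seen, and no difference between days has a replicate check. Whether a pool held the sexes in equal number is not stated. The E11.5 pool held the whole genital ridge with the mesonephros, the embryonic kidney beside the gonad, which was removed from E12.5 on; at the step from E11.5 to E12.5 the loss of the mesonephros and the passing of a day therefore cannot be told apart. The counts summed to 31266481 at E11.5 and 25593453, 31752562 and 31526303 on the 3 following days.

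Ribosomal RNA was depleted before the libraries were made, so its share of the counts is what was left after that step. Ribosomal RNA took 17.7% of the counts at E11.5, then 8.90% and 8.72%, and 48.9% at E14.5. Levels across libraries are therefore given as CPM, the usual unit of counts scaled to a common library size, here after TMM scaling, which centres the bulk of the features, and levels of different genes within a library as the deposited TPM, which is per length. With plain totals in place of TMM, the median log2 ratio over the 20114 features kept was 0.16 at E12.5 versus E11.5, 0.03 at E13.5 versus E12.5, -1.07 at E14.5 versus E13.5 and -1.04 at E14.5 versus E12.5, against -0.01 to 0.00 with TMM. A gene was called higher or lower where its level differed by 2-fold or more and the 95% counting interval of the log2 ratio left out 0. Intervals cover counting error only.

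The 4 genes listed as markers of the gonad's somatic cells were present in each library. Nr5a1, a nuclear receptor, had 2136, 4962, 6595 and 3366 counts from E11.5 to E14.5, and Gata4, a zinc finger factor, had 4026, 10077, 11790 and 5129. Wt1 had 10724, 8769, 9544 and 3371 counts and Lhx9 3543, 7223, 7885 and 3141 in the same order. Summed over the 4 genes, the level was 596 CPM at E11.5 and 989, 905 and 797 on the 3 following days, and 3 of the 4 were called higher at E12.5 than at E11.5.

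Together the imprinted genes took 518744 counts at E11.5 and 316899, 390396 and 171956 on the 3 following days. That was 1.66% of all counts (95% Wilson interval 1.65 to 1.66) at E11.5, then 1.24% (1.23 to 1.24) and 1.23% (1.23 to 1.23), and 0.545% (0.543 to 0.548) at E14.5. Without ribosomal RNA the shares were 2.02%, 1.36%, 1.35% and 1.07%. On the TMM scale the summed level was 15138 CPM at E11.5 and 10100.2, 9865 and 9134 on the 3 following days, so the sum was highest in the library with the mesonephros and differed less among the 3 later days. The 3 most abundant members held 52.0% of the members' counts at E11.5 and 47.4%, 45.1% and 41.1% on the 3 following days. In bulk tissue, fewer cells that express a gene and less of its RNA per cell cannot be told apart.

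Of the 36 members, 35 had counts in each library and passed the filter on low counts; Snrpn had 0 counts in all 4. H19 had the highest TPM of the members in each library and Igf2 the next highest, while the lowest of the 35 was Ascl2 at E11.5 with 0.174 TPM, Slc22a18 at E12.5 with 0.233, Rtl1 at E13.5 with 0.348 and Rtl1 at E14.5 with 0.156. The counts of the members covered a wide range, and 22 members had 1000 counts or more at E11.5, E12.5 and E13.5, and 20 at E14.5. On the TMM scale, 18 of the 35 were highest at E11.5 and 1, 9 and 7 on the 3 following days, and 17 stayed within 1.5-fold over the 4 libraries; this tally depends on the scaling, since 34 of the 35 had lower values at E14.5 than at E13.5 by plain totals or TPM.

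At E12.5 versus E11.5, 1 of the 35 members was called higher, Phlda2, where 8.12% of all features kept were called higher, and 3 were called lower, Asb4, Slc22a3 and Nnat, where 8.21% were called lower. The median log2 ratio of the members was -0.22, with 27 below 0 and 8 above, beside -0.00 over all features kept. With plain totals 21 were below 0 and 14 above, and with ratios of the deposited TPM 16 were below 0 and 19 above. At E13.5 versus E12.5, 3 members were called higher, Phlda2, Ascl2 and Slc22a18, beside 2.53% of all features, and 0 were called lower, beside 1.52%, with a median of 0.04. At E14.5 versus E13.5, 1 member was called higher, Nnat, beside 5.80% of all features, and 2 were called lower, Phlda2 and Ascl2, beside 1.50%, with a median of -0.15. At E14.5 versus E12.5, which sets a pair of libraries without mesonephros side by side, 2 members were called higher, Slc22a18 and Nnat, beside 7.94% of all features, and 0 were called lower, beside 2.55%, with a median of -0.08. The 4 comparisons share libraries and are not independent of each other. With plain totals, 26 members passed as lower at E14.5 versus E13.5 and 18 at E14.5 versus E12.5, and 0 passed as higher at E14.5 versus E12.5. With the whole interval required past the 2-fold line, 1 was higher at E13.5 versus E12.5 (Slc22a18), 1 lower at E14.5 versus E13.5 (Phlda2) and 1 higher at E14.5 versus E12.5 (Nnat). Phlda2, Asb4 and Nnat at E12.5 versus E11.5 and Nnat at E14.5 versus E13.5 also met this rule. Slc22a3 at E12.5 versus E11.5 did not. With the exact test of edgeR at a set dispersion of 0.16 and an FDR of 0.05, 0 were called in any of the 4 comparisons.

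By the copy listed for each gene, the medians were close at the first step. At E12.5 versus E11.5 the 17 maternal genes had a median log2 ratio of -0.22 and the 18 kept paternal genes one of -0.22. At E13.5 versus E12.5 the medians were 0.14 for the maternal and 0.00 for the paternal genes, and all 3 members called higher were maternal genes of 1 cluster. At E14.5 versus E13.5 they were -0.25 and -0.12, and at E14.5 versus E12.5 they were 0.07 and -0.12. Ube3a, Gnas, Asb4 and Ppp1r9a are in the maternal group although they are not known as read from the maternal copy alone in all tissues. The groups therefore may not match the copy expressed in the gonad. Whether maternal and paternal genes differed was not tested.

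**Figure D1:**
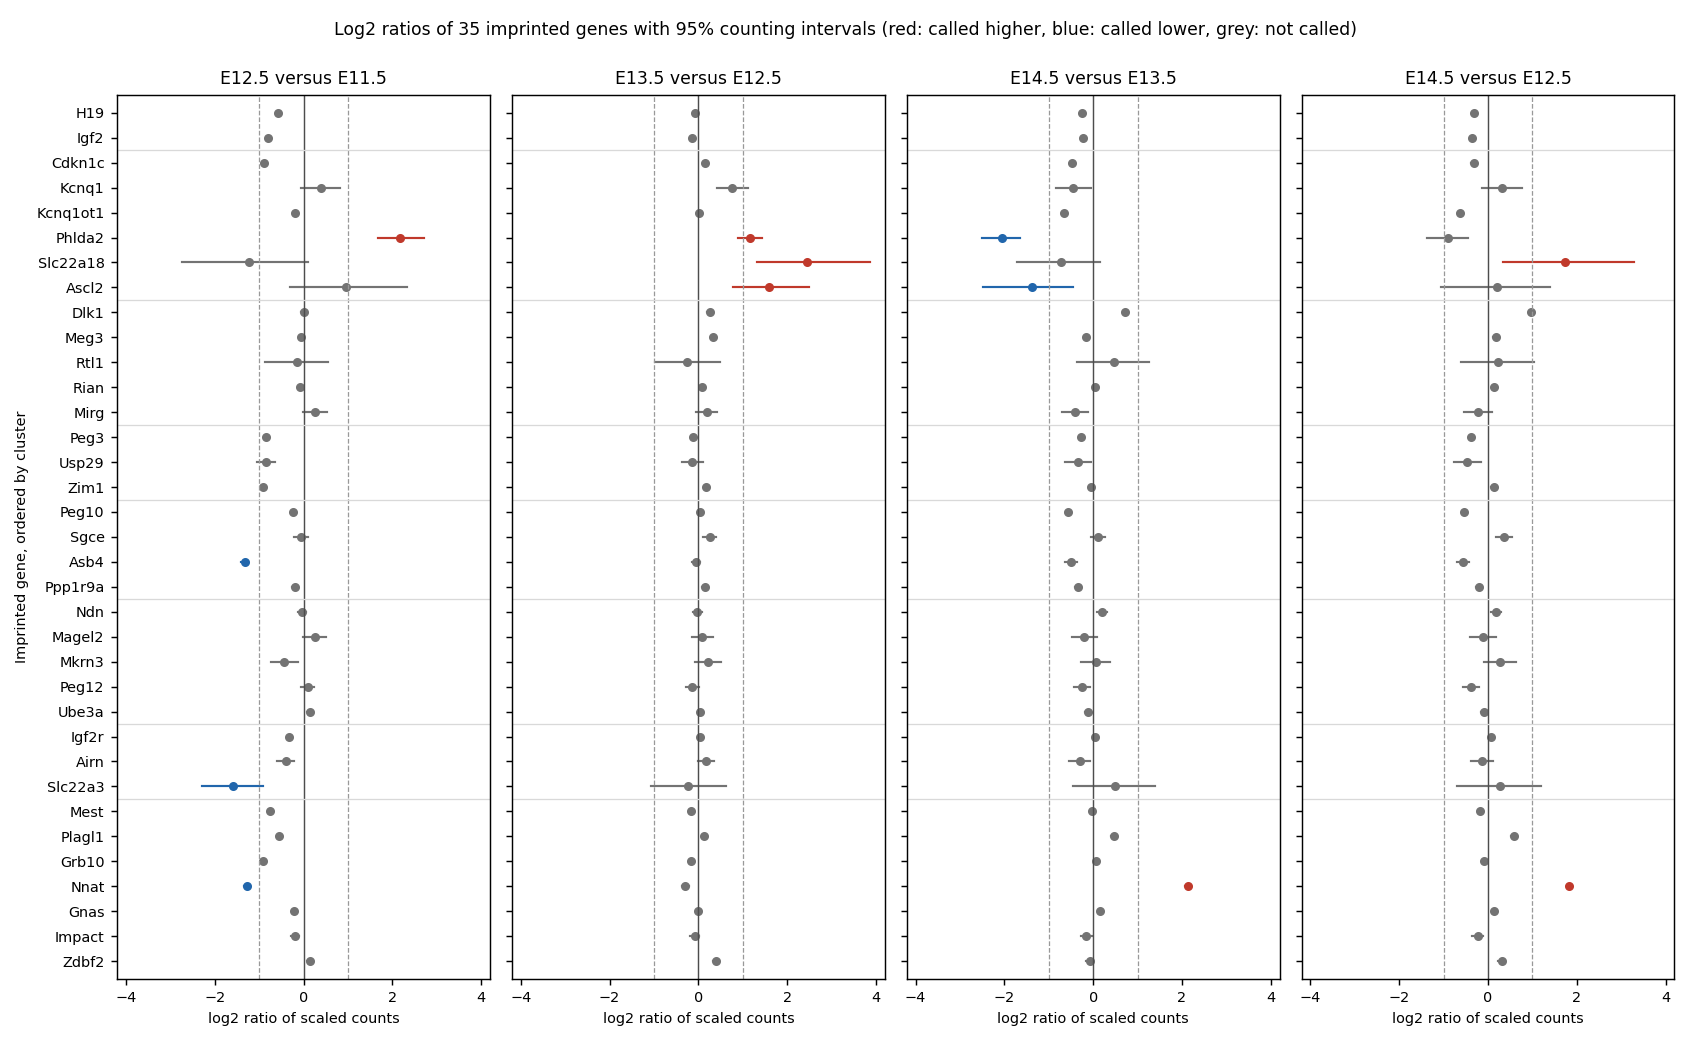
Each row is 1 imprinted gene, ordered by cluster, and each panel a comparison of 2 libraries; points are log2 ratios of TMM-scaled counts, lines their 95% counting intervals, and dashed lines mark a 2-fold difference. Phlda2 stood at 2.17 in the first panel and -2.06 in the third, and Nnat at -1.27 in the first and 2.13 in the third, while 31, 32, 32 and 33 of the 35 genes were not called in the 4 panels from left to right.

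The H19-Igf2 cluster on chromosome 7 (mm10, 142575532 to 142666869, minus strand for both members) pairs a maternally expressed long non-coding RNA, H19, with a paternally expressed growth factor of the embryo, Igf2. H19 had 3093 CPM at E11.5 and 2081, 1975 and 1662 on the 3 following days, from 105987, 65281, 78169 and 31280 counts. Igf2 had 2849.72 CPM at E11.5 and 1641, 1489 and 1272 on the 3 following days, from 97656, 51501, 58939 and 23954 counts. Both were highest at E11.5 and lowest at E14.5, with log2 ratios at E12.5 versus E11.5 of -0.57 (-0.59 to -0.56) for H19 and -0.80 (-0.81 to -0.78) for Igf2, under the 2-fold line. Per length, H19 stood at 1.99 times Igf2 at E11.5 (95% interval 1.97 to 2.01), 2.32 at E12.5 (2.30 to 2.35), 2.43 at E13.5 (2.41 to 2.46) and 2.39 at E14.5 (2.35 to 2.44). The ratio of the pair was thus lower at E11.5 than at the 3 later days, beyond counting error. The later days lay closer to each other, though the ratio at E13.5 was above that at E12.5 beyond counting error too.

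Both genes hold a microRNA, and the library method keeps short RNAs. H19 is the host of miR-675, whose 5p strand had 54, 26, 34 and 12 counts from E11.5 to E14.5 and whose 3p strand had 37, 18, 13 and 8. The 3p strand of miR-483, in an intron of Igf2, had 52, 26, 16 and 11 counts, and miR-335-5p, in an intron of Mest, had 50, 20, 23 and 16. Each was most counted at E11.5, as its host gene was. Summed over the 2 strands of miR-675, the log2 ratio at E12.5 versus E11.5 was -0.92 (95% interval -1.47 to -0.39), beside -0.57 for H19. These 4 were the only mature microRNAs of the imprinted regions searched, 141 in all, with 10 or more counts in a library, and reads of a precursor or of the host transcript can fall on a mature feature. Their sequences (RefSeq, GRCm38.p6, 132 of the 141 matched by name) are shown because they carry the short-RNA signal of these loci; the seed, bases 2 to 8, is in capitals, and no seed is shared among the 4. They lie at chr7:142577112-142577133 and chr7:142577078-142577099 on the minus strand, chr7:142654932-142654952 on the minus strand and chr6:30741314-30741336 on the plus strand.
miR-675-5p: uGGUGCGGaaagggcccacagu
miR-675-3p: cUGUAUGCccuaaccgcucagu
miR-483-3p: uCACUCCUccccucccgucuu
miR-335-5p: uCAAGAGCaauaacgaaaaaugu

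**Figure D2:**
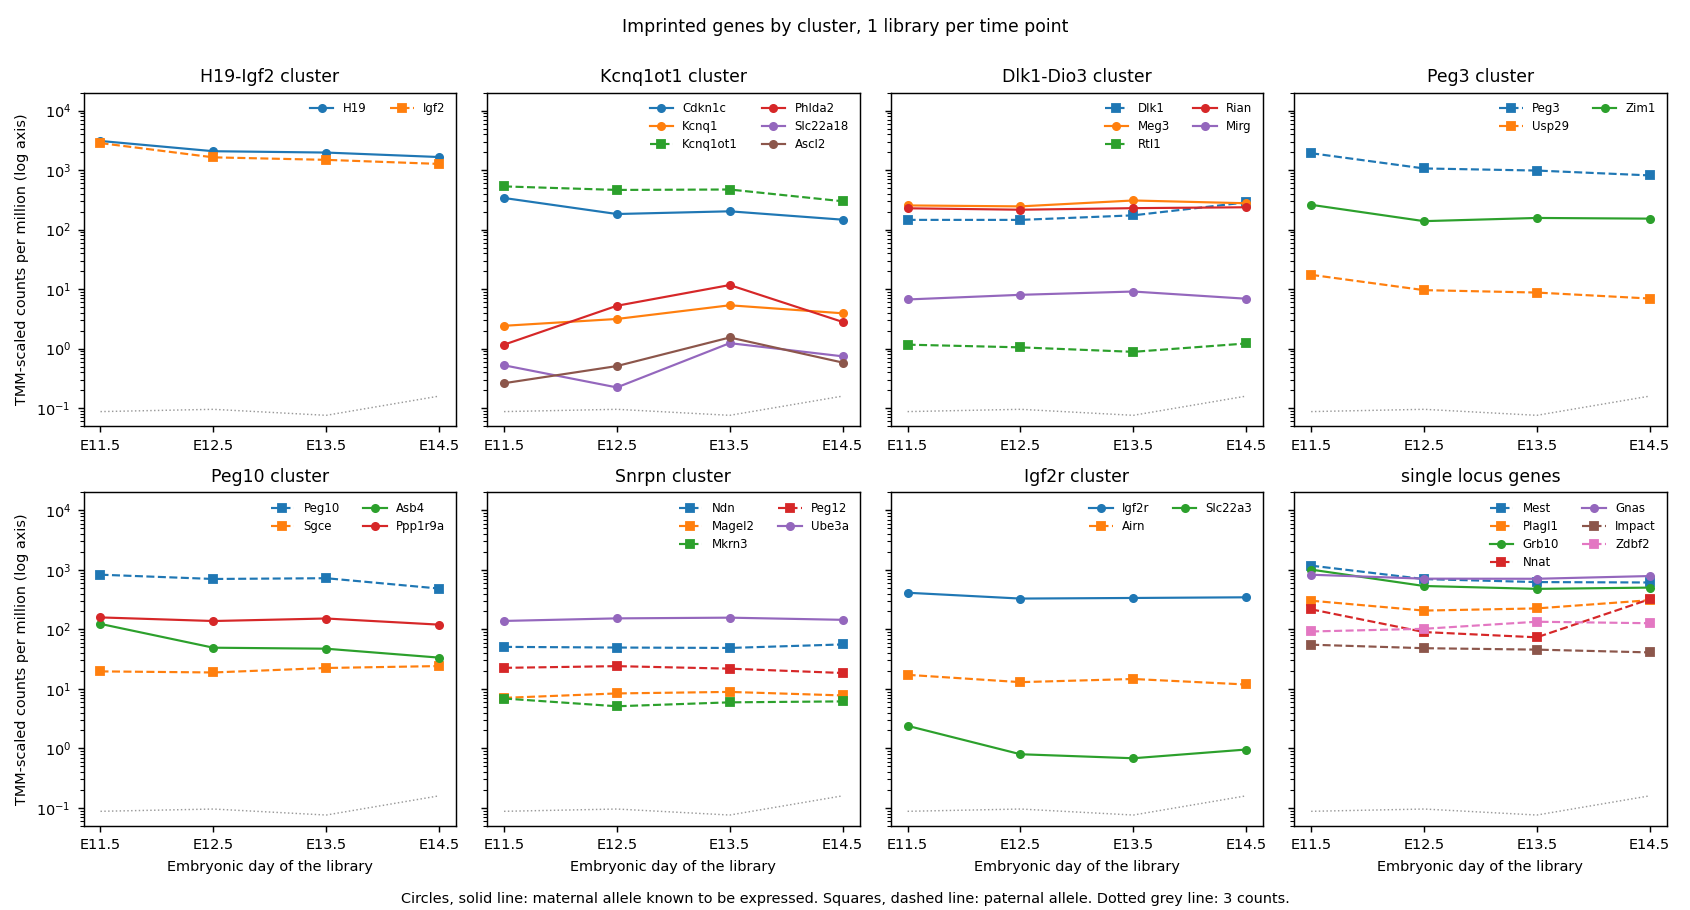
TMM-scaled CPM (log axis) of the 35 imprinted genes with counts, by embryonic day and cluster, 1 library per day. Circles mark genes listed as maternal, squares those listed as paternal, and the dotted line the level of 3 counts. Levels run from 0.223 for Slc22a18 at E12.5 to 3093 for H19 at E11.5, and Phlda2, Ascl2 and Slc22a18 peak at E13.5.

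The Kcnq1ot1 cluster on chromosome 7 (142966822 to 143503150) holds the paternally expressed long non-coding RNA Kcnq1ot1, which silences its neighbours on the paternal copy, and 5 maternally expressed members. Cdkn1c, an inhibitor of the cell cycle, had 341 CPM at E11.5 and 183, 203 and 147 on the 3 following days. Kcnq1ot1 itself had 533 CPM at E11.5 and 465, 473 and 300.1 on the 3 following days. Both were highest at E11.5 and lowest at E14.5, and neither passed the 2-fold line at any step: Cdkn1c had a log2 ratio of -0.90 (-0.94 to -0.85) at E12.5 versus E11.5 and Kcnq1ot1 one of -0.66 (-0.70 to -0.61) at E14.5 versus E13.5. Per length, Cdkn1c stood at 25.4 times Kcnq1ot1 at E11.5 (24.8 to 26.0), 15.7 at E12.5 (15.2 to 16.1), 17.1 at E13.5 (16.7 to 17.6) and 19.5 at E14.5 (18.6 to 20.4), so the pair stood furthest apart at E11.5.

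The other 4 members of this cluster were low and highest at E13.5. Phlda2, a small protein that restrains growth of the placenta, had 40, 165, 464 and 53 counts from E11.5 to E14.5, or 1.17 CPM at E11.5 and 5.26, 11.7 and 2.82 on the 3 following days. It rose at both steps to E13.5 and fell after it: the log2 ratio was 2.17 (1.67 to 2.71) at E12.5 versus E11.5, 1.16 (0.90 to 1.42) at E13.5 versus E12.5 and -2.06 (-2.50 to -1.65) at E14.5 versus E13.5. Ascl2, a transcription factor of trophoblast, had 9, 16, 61 and 11 counts, or 0.263 CPM at E11.5 and 0.510, 1.54 and 0.584 on the 3 following days. It was higher at E13.5 than at E12.5, with a log2 ratio of 1.59 (0.78 to 2.49), and lower at E14.5 than at E13.5, with one of -1.39 (-2.48 to -0.46). Slc22a18, a membrane transporter, had 18, 7, 49 and 14 counts, or 0.525 CPM at E11.5 and 0.223, 1.24 and 0.744 on the 3 following days. Its lowest library was E12.5 and its highest E13.5, with log2 ratios of 2.45 (1.32 to 3.86) at E13.5 versus E12.5 and 1.72 (0.33 to 3.29) at E14.5 versus E12.5. Kcnq1, a potassium channel, had 83, 99, 212 and 74 counts, or 2.42 CPM at E11.5 and 3.16, 5.36 and 3.93 on the 3 following days, and its log2 ratio of 0.76 (0.41 to 1.12) at E13.5 versus E12.5 stayed under the 2-fold line.

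All 6 members had log2 ratios above 0 at E13.5 versus E12.5, with a median of 0.96, though that of Kcnq1ot1 was 0.02 (-0.01 to 0.06), and all 6 had ratios below 0 at E14.5 versus E13.5, with a median of -0.69. These signs were the same with DESeq2 size factors, the further TMM fits and a larger prior count. Plain totals and ratios of the deposited TPM put 23 and 27 of the 35 members above 0 at E13.5 versus E12.5 and 34 below 0 at E14.5 versus E13.5, so the signs under them say little about the cluster. With TMM, 21 of the 35 were above 0 and 23 below 0 in the same comparisons. Most members thus shared the signs of the cluster under TMM too. Imprinted genes outside the members also lie within the span of the cluster. At E13.5 versus E12.5, Tspan32 had a log2 ratio of -0.77 (-1.14 to -0.41), Tssc4 one of -0.07 (-0.23 to 0.09) and Cd81 one of 0.09 (0.04 to 0.14). At E14.5 versus E13.5 their ratios were 0.01, 0.05 and 0.24. Of the 3 genes called higher at E13.5, Ascl2 and Slc22a18 rest on few reads, with 16 and 7 counts at E12.5. None of Phlda2, Slc22a18 and Ascl2 shares exon bases with another feature of the annotation. Of the exon bases of Kcnq1, 25.1% lie opposite other features, the largest of which had 3, 0, 1 and 0 counts. Kcnq1ot1 lies opposite 125 of these bases and had 18265, 14592, 18713 and 5649 counts. Whether the low counts of Kcnq1 hold reads of Kcnq1ot1 was not tested.

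**Figure D3:**
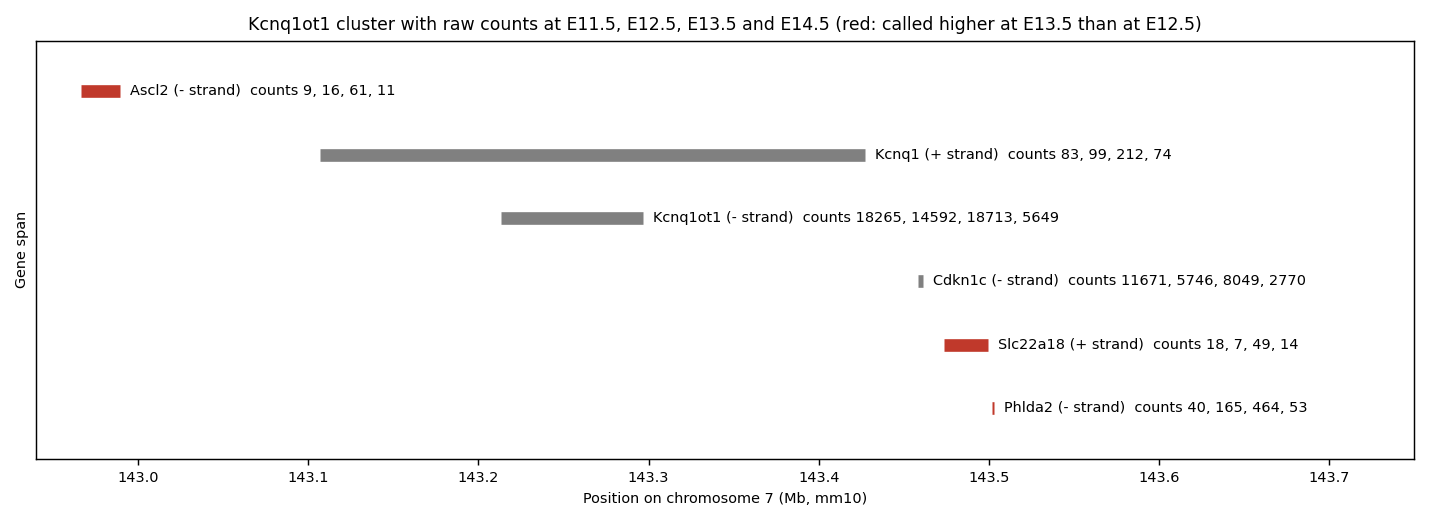
Spans of the 6 members of the Kcnq1ot1 cluster on chromosome 7 (x axis, Mb, mm10), each on its own line, with strand and raw counts in the 4 libraries; red marks a gene called higher at E13.5 than at E12.5. The 3 red genes, Ascl2, Slc22a18 and Phlda2, lie at both ends of the cluster, and Kcnq1ot1, read from within the span of Kcnq1 on the other strand, has the most counts.

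The Dlk1-Dio3 cluster on chromosome 12 (109452823 to 109749458 for the members) pairs paternally expressed protein genes with maternally expressed non-coding RNAs, many of them hosts of small RNAs. Dlk1, a membrane protein that holds back differentiation, had 146 CPM at E11.5 and 146, 174 and 287 on the 3 following days. Meg3, a long non-coding RNA, had 255 CPM at E11.5 and 246, 309 and 278 on the 3 following days. Dlk1 was highest at E14.5, with a log2 ratio of 0.72 (0.67 to 0.78) against E13.5 and 0.98 (0.92 to 1.04) against E12.5, which is just under the 2-fold line and turns below 0 with plain totals or ratios of TPM. Meg3 was highest at E13.5 and varied less. Per length, Meg3 stood at 0.653 times Dlk1 at E11.5 (0.631 to 0.676), 0.630 at E12.5 (0.608 to 0.654), 0.664 at E13.5 (0.645 to 0.684) and 0.361 at E14.5 (0.348 to 0.375). This ratio, which no scaling of the libraries can move, was lower at E14.5 than at each of the 3 earlier days.

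Rian, the host of box C/D snoRNAs, had 229 CPM at E11.5 and 216, 229.72 and 238 on the 3 following days and varied least of the members on the TMM scale, with a highest level 1.10 times its lowest; by plain totals it passed as lower at E14.5 versus E13.5. Mirg, a host of microRNAs, had 6.71 CPM at E11.5 and 8.03, 9.12 and 6.91 on the 3 following days, and Rtl1, a protein derived from a retrotransposon, had 40, 33, 35 and 23 counts. Neither was called at any step. Of the exon bases of Rtl1, 32.5% lie opposite other features, the largest of which, 6430411K18Rik, had 272, 266, 374 and 161 counts; the strand setting of the counting is not given in the sources used here, so the low counts of Rtl1 may hold reads of that strand. Per length, Meg3 stood at 0.310 times Rian at E11.5 (0.301 to 0.320), 0.316 at E12.5 (0.306 to 0.327), 0.374 at E13.5 (0.364 to 0.384) and 0.324 at E14.5 (0.312 to 0.338), highest at E13.5 beyond counting error. Rian stood at 12.4 times Mirg at E11.5 (10.8 to 14.1), 9.77 at E12.5 (8.61 to 11.1), 9.13 at E13.5 (8.22 to 10.2) and 12.49 at E14.5 (10.5 to 15.0).

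Small RNAs of this region, from Dlk1 to Dio3, were counted as features of their own. The 7 snoRNAs, which lie within the span of Rian, had 930 counts in sum at E11.5 (27.1 CPM), 570 at E12.5 (18.2 CPM), 790 at E13.5 (19.96 CPM) and 546 at E14.5 (29.0 CPM). On this scale they were high at both ends of the series and low between, and the log2 ratio of the sum was 0.54 (0.38 to 0.70) at E14.5 versus E13.5, beside 0.05 for the host Rian; with plain totals this ratio was below 0. The snoRNA at chr12:109636012-109636080 on the plus strand had 239, 120, 175 and 196 counts, with a log2 ratio of 1.24 (0.93 to 1.54) at E14.5 versus E13.5, or 0.17 with plain totals. The authors reported that all snoRNAs they called at E12.5 versus E11.5 were lower, and all they called at E14.5 versus E13.5 were higher. These directions were thus not particular to this region. The 116 mature microRNAs of the region summed to 79, 70, 61 and 58 counts, and none had 10 counts in any library, so none was compared by itself.

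The Peg3 cluster on chromosome 7 (6671456 to 6967220) holds Peg3, a paternally expressed zinc finger protein, Usp29, a paternally expressed ubiquitin protease gene on the other strand, and Zim1, a maternally expressed zinc finger gene. Peg3 had 1927 CPM at E11.5 and 1068, 985 and 816 on the 3 following days, from 66029, 33506, 38965 and 15368 counts. Usp29 had 17.4 CPM at E11.5 and 9.63, 8.77 and 6.96 on the 3 following days, from 597, 302, 347 and 131 counts. Zim1 had 261 CPM at E11.5 and 139, 157 and 153 on the 3 following days. All 3 were highest at E11.5 and lower at each of the 3 later days. The log2 ratios at E12.5 versus E11.5 were -0.85 (-0.87 to -0.83) for Peg3, -0.86 (-1.06 to -0.65) for Usp29 and -0.91 (-0.96 to -0.86) for Zim1, and none passed the 2-fold line.

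Peg3 and Usp29 start next to each other and are read apart. Peg3 had 125 times the level of Usp29 per length at E11.5 (116 to 136), 126 at E12.5 (112 to 141), 127 at E13.5 (114 to 142) and 133 at E14.5 (112 to 159). The 4 intervals overlap, so no change in the ratio was detectable while Peg3 went from 66029 to 15368 counts. Against Zim1, by contrast, Peg3 stood at 8.47 times at E11.5 (8.28 to 8.66), 8.83 at E12.5 (8.55 to 9.11), 7.19 at E13.5 (7.002 to 7.389) and 6.12 at E14.5 (5.88 to 6.37), lower at the 2 later days beyond counting error. In RefSeq the starts of Peg3 and Usp29 lie 164 bases apart, at 6730419 and 6730583, and the windows from 250 bases before to 50 bases after each start share 263 of 300 bases. The window of Peg3 (RefSeq, GRCm38.p6, chr7:6730370-6730669, minus strand) is shown because both RefSeq starts lie in it, although the counted Usp29 feature starts outside it, at 6730741; its 13 CG pairs, the sites of methylation, are in capitals.
Peg3: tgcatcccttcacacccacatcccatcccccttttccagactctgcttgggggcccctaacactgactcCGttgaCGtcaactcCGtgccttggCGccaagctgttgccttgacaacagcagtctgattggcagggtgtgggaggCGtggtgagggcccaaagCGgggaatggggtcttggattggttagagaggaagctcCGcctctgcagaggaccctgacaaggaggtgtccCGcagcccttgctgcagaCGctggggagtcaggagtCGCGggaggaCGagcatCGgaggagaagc

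The Peg10 cluster on chromosome 6 (4674350 to 5433023) holds Peg10 and Sgce, which are expressed from the paternal copy and read apart from neighbouring starts, and Asb4 and Ppp1r9a, which are known as maternally expressed in some tissues. Peg10, a gene of retrotransposon origin needed for the placenta, had 829 CPM at E11.5 and 703, 724 and 485 on the 3 following days. Sgce, a sarcoglycan, had 19.7 CPM at E11.5 and 18.9, 22.4 and 24.2 on the 3 following days. Peg10 was lowest at E14.5 and Sgce highest there, and per length Peg10 stood at 12.46 times Sgce at E11.5 (11.54 to 13.47), 11.01 at E12.5 (10.1 to 12.0), 9.53 at E13.5 (8.92 to 10.2) and 5.93 at E14.5 (5.40 to 6.53). This ratio was lower at E14.5 than at each of the 3 earlier days beyond counting error, whereas that of Peg3 and Usp29 was not.

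Asb4, a subunit of a ubiquitin ligase, had 4233, 1543, 1872 and 631 counts, or 124 CPM at E11.5 and 49.2, 47.3 and 33.5 on the 3 following days. It was high at E11.5 alone, and the log2 ratio at E12.5 versus E11.5 was -1.33 (-1.41 to -1.24). Ppp1r9a, which binds actin and protein phosphatase, had 159 CPM at E11.5 and 138, 152 and 120.1 on the 3 following days and was not called at any step.

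The Snrpn cluster on chromosome 7 (59228750 to 62464510), the region of the Prader-Willi and Angelman syndromes, holds 5 members with counts. Ndn, a growth-restraining protein of the MAGE family, had 50.8 CPM at E11.5 and 49.5, 48.7 and 55.8 on the 3 following days. Its neighbour Magel2 had 7.06 CPM at E11.5 and 8.38, 8.89 and 7.76 on the 3 following days, Mkrn3, a ubiquitin ligase linked to the timing of puberty, had 6.89 CPM at E11.5 and 5.10, 5.94 and 6.16 on the 3 following days, and Peg12 had 22.6 CPM at E11.5 and 24.1, 21.9 and 18.5 on the 3 following days. Ube3a, a ubiquitin ligase read from the maternal copy in neurons and from both copies elsewhere, had 139 CPM at E11.5 and 153, 157 and 145 on the 3 following days. None of the 5 was called in any comparison, and their log2 ratios ranged from -0.43 (Mkrn3) to 0.25 (Magel2) at E12.5 versus E11.5 and from -0.24 (Peg12) to 0.20 (Ndn) at E14.5 versus E13.5. Per length, Ndn stood at 20.3 times Magel2 at E11.5 (17.7 to 23.3), 16.7 at E12.5 (14.6 to 19.1), 15.5 at E13.5 (13.8 to 17.4) and 20.3 at E14.5 (17.1 to 24.3), lower at E13.5 than at E11.5 beyond counting error.

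Snrpn, which encodes a protein of the spliceosome and is transcribed from the paternal copy in most tissues, was listed at 0 in all libraries. A count of 0 allows up to 3 counts, or 0.0875 CPM at E11.5 and 0.0956, 0.0758 and 0.159 on the 3 following days. Snurf, an upstream reading frame of the same transcript, was also listed at 0, and 82.8% of the exon bases of Snrpn (1970 of 2380) are shared with Snurf on the same strand; how the counting treated reads that fall on both features is not given in the sources used here, so 0 cannot be read as absence of the RNA. Within the same stretch Snord64, a snoRNA, had 21 counts at E11.5 and 31, 57 and 39 on the 3 following days, with a log2 ratio of 1.07 (0.35 to 1.80) at E14.5 versus E12.5, or 0.03 with plain totals, while the 3 other snoRNAs there had 0 in all libraries. All snoRNAs that the authors called at E14.5 versus E13.5, wherever they lie, were higher.

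The Igf2r cluster on chromosome 17 (12419972 to 12859884) holds Igf2r, the maternally expressed receptor that takes up and degrades Igf2, Airn, the paternally expressed non-coding RNA that silences it, and Slc22a3, an organic cation transporter. Igf2r had 412 CPM at E11.5 and 329, 337 and 346 on the 3 following days. Airn had 17.2 CPM at E11.5 and 12.97, 14.7 and 11.8 on the 3 following days. Both were highest at E11.5, and per length Igf2r stood at 5.87 times Airn at E11.5 (5.41 to 6.38), 6.22 at E12.5 (5.63 to 6.89), 5.64 at E13.5 (5.19 to 6.14) and 7.15 at E14.5 (6.26 to 8.21), higher at E14.5 than at E13.5 beyond counting error. Slc22a3 had 82, 25, 27 and 18 counts, or 2.39 CPM at E11.5 and 0.797, 0.682 and 0.956 on the 3 following days. It was high at E11.5 and low at the 3 later days, with a log2 ratio of -1.58 (-2.29 to -0.93) at E12.5 versus E11.5.

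Of the 7 members at single loci, Nnat alone was called with TMM. Nnat, a small membrane protein of the endoplasmic reticulum on chromosome 2 (157560073 to 157562525, plus strand), expressed from the paternal copy, had 7446, 2828, 2909 and 6051 counts, or 217 CPM at E11.5 and 90.1, 73.5 and 321 on the 3 following days. It was high at E11.5 and E14.5 and low at the 2 days between. It fell at E12.5 versus E11.5, with a log2 ratio of -1.27 (-1.33 to -1.21), was under the line at E13.5 versus E12.5, with -0.29 (-0.37 to -0.22), and rose at E14.5 versus E13.5, with 2.13 (2.06 to 2.19), and versus E12.5, with 1.83 (1.77 to 1.90). From ratios of the deposited TPM, in which ribosomal RNA counts toward the total, the last 2 values were 0.51 and 0.35. Nnat had the seventh highest TPM of the members at E11.5 and the third highest at E14.5. No exon base of Nnat is shared with another feature, and its promoter window (RefSeq, GRCm38.p6, chr2:157559828-157560127, plus strand) is shown because the gene was called in 3 comparisons; the hexamer TGCCGC or its reverse complement GCGGCA, the core of the motif bound by Zfp57, a protein that protects imprints, is in capitals where it occurs.
Nnat: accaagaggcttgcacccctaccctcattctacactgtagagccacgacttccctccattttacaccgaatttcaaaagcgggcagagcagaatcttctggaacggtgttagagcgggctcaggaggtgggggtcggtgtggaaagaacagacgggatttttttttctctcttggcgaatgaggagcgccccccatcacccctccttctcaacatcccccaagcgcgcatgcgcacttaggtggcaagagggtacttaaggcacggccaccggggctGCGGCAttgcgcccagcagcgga

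That hexamer, searched on both strands, was in 10 of 45 promoter windows of 29 members (22.2%) and in 11.6% of 32851 windows of all genes. Windows of a gene can overlap: Mest has 2 of the 10, 3 bases apart, so the 10 belong to 9 genes. The windows of the members had a median GC content of 55.7% beside 52.7% for all, and a median observed over expected CG ratio of 0.602 beside 0.384. A match is a description of letters, not of binding.

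Mest, a paternally expressed gene of the hydrolase family, had 1178 CPM at E11.5 and 700.2, 623 and 614 on the 3 following days. Grb10, an adaptor that dampens insulin signalling, expressed from the maternal copy in most tissues, had 1010.05 CPM at E11.5 and 536, 479 and 503 on the 3 following days. Both were highest at E11.5 and varied less from E12.5 on, with log2 ratios at E12.5 versus E11.5 of -0.75 (-0.77 to -0.73) for Mest and -0.92 (-0.94 to -0.89) for Grb10, under the 2-fold line. Plagl1, a zinc finger protein that acts on other imprinted genes, had 303 CPM at E11.5 and 207, 225 and 309 on the 3 following days, lowest at E12.5 and about equal at both ends. Of the exon bases of Mest, 32.5% lie opposite Copg2, which had 1450, 1464, 2019 and 933 counts beside 40364, 21968, 24669 and 11550 for Mest.

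Gnas, the locus of the stimulatory G protein subunit, whose starts are read from either copy, had 829 CPM at E11.5 and 711, 708 and 787 on the 3 following days. Impact, a regulator of translation, had 55.2 CPM at E11.5 and 48.3, 45.7 and 41.0 on the 3 following days, and Zdbf2, a zinc finger gene expressed from the paternal copy, had 92.1 CPM at E11.5 and 102, 134 and 127 on the 3 following days. None of the 3 was called at any step; Impact was highest at E11.5 and Zdbf2 at E13.5. Over the 29 members called in no comparison, the highest level was between 1.10 and 2.50 times the lowest (median 1.45), with Rian and Usp29 at the ends of that range.

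Markers of the mesonephros moved with the members that fell at E12.5. Of the 10 genes on that list, 7 were called lower at E12.5 versus E11.5, the summed level was 265 CPM at E11.5 and 117, 103 and 82.4 on the 3 following days, Emx2 was the most abundant in each library, and none was at 0 in any. Emx2 had 88.9 CPM at E11.5 and 88.4, 80.6 and 55.5 on the 3 following days. It was not called at E12.5 versus E11.5 and made up most of the sum from E12.5 on. Pax2, a defining factor of the nephric duct and tubules, had 1531, 60, 73 and 36 counts. The step from E13.5 to E14.5 was different, with 4 of the 10 called higher and 0 lower. The part of the mesonephros in the lower levels of Asb4, Slc22a3 and Nnat at E12.5, and in the higher Nnat at E14.5, was not tested.

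Other cell types moved over the same days. Markers of germ cells summed to 17.0 CPM at E11.5 and 286, 371 and 321 on the 3 following days, with 6 of 7 called higher at E12.5 versus E11.5 and Dazl the most abundant from E12.5 on. Markers of Sertoli cells, the supporting cells of the testis, summed to 91.8, 638, 548 and 561 CPM, with 4 of 5 higher at E12.5 and Amh the most abundant from then on. Markers of pregranulosa cells, their counterpart in the ovary, summed to 121, 173, 227 and 194 CPM, with 3 of 5 higher at E12.5 and Wnt4 the most abundant in each library. Markers of fetal Leydig cells, which make androgens, summed to 12.8, 164, 680 and 1121 CPM: all 5 were called higher at E12.5 versus E11.5 and at E13.5 versus E12.5, and 0 at E14.5 versus E13.5; Insl3 was at 0 at E11.5 alone, and Cyp17a1 was the most abundant at E13.5 and E14.5. Markers of the adrenal cortex summed to 5.37, 3.70, 8.69 and 17.9 CPM, with Cyp11b2 at 0 at E12.5. Of the 4 kept, 2, Cyp11b1 and Cyp21a1, were higher at E13.5 versus E12.5 and again at E14.5 versus E13.5. Mc2r, with 145, 79, 136 and 57 counts, and Akr1b7, with 25, 35, 78 and 59, were not called at either of these steps. Whether cells of the adrenal cortex were in the pools was not tested.

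Further lists cover cells of vessels, blood and muscle. Markers of macrophages summed to 41.7, 18.9, 20.3 and 26.6 CPM over the 4 of 5 genes measured, with 3 lower at E12.5, and Csf1r was the most abundant in each library. Endothelial markers summed to 353, 337, 259 and 239 CPM, led by Cdh5 from E12.5 on, with 0 called at any step. Erythroid markers summed to 1401, 1615, 655 and 206 CPM, led by Hbb-y, with 2 of 7 lower at E12.5, 2 higher and 3 lower at E13.5 versus E12.5, and 3 lower at E14.5 versus E13.5. Markers of smooth muscle and gut mesoderm summed to 84.2, 74.7, 124 and 162 CPM, with 1 of 5 higher and 3 lower at E12.5 versus E11.5 and 3 higher at E14.5 versus E12.5, when Acta2 was the most abundant. No other marker of the lists given here was at 0 in a library. The part of any of these cell types in the levels of Phlda2, Ascl2, Slc22a18 or Nnat was not tested.

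A further list of 46 imprinted genes outside the members held 44 with a feature, 40 of them kept. At E12.5 versus E11.5, 3 were called higher and 7 lower, beside 8.12% and 8.21% of all features, with a median log2 ratio of 0.07. The counts were 3 and 0 at E13.5 versus E12.5 (2.53% and 1.52%; median 0.20), 3 and 0 at E14.5 versus E13.5 (5.80% and 1.50%; median 0.04), and 8 and 0 at E14.5 versus E12.5 (7.94% and 2.55%; median 0.24). Whether the list differs from all features was not tested. With plain totals, 20 of them were lower at E14.5 versus E13.5 and 12 at E14.5 versus E12.5. Gatm, the first enzyme of creatine synthesis, had 220, 3913, 5520 and 2346 counts from E11.5 to E14.5 and rose, with a log2 ratio of 4.28 (4.08 to 4.48) at the first step. Tspan32, within the span of the Kcnq1ot1 cluster, had 41, 153, 113 and 54 counts, with a log2 ratio of 2.02 (1.52 to 2.56) at the first step. Cobl and Ddc, neighbours of Grb10, had 301, 104, 194 and 93 and 132, 46, 47 and 25 counts, with log2 ratios of -1.40 (-1.74 to -1.08) and -1.39 (-1.91 to -0.90) at that step.

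Dcn, a proteoglycan of the matrix, had 971, 1052, 2667 and 3118 counts and was higher at each later step, with log2 ratios of 1.01 (0.90 to 1.11) at E13.5 versus E12.5 and 1.30 (1.22 to 1.37) at E14.5 versus E13.5. Zim2, the neighbour of Zim1, had 2, 17, 32 and 115 counts and was highest at E14.5, with 2.91 (2.34 to 3.53) against E13.5, while Peg3, Usp29 and Zim1 were not called. Ampd3, an enzyme of purine metabolism, had 102, 99, 247 and 257 counts, with 1.13 (0.87 to 1.39) against E13.5. Dhcr7, the last enzyme of cholesterol synthesis, had 771, 1054, 2391 and 1467 counts, with 1.21 (1.10 to 1.33) at E14.5 versus E12.5. Against E12.5, the E14.5 ratios were 2.30 (2.20 to 2.41) for Dcn, 3.49 (2.75 to 4.32) for Zim2 and 2.11 (1.77 to 2.46) for Ampd3. With plain totals, Dcn and Ampd3 were not called higher at E14.5 versus E13.5, nor Dhcr7 at E14.5 versus E12.5.

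The factors that keep or set imprints form another list. Of 16 such genes, all kept, 1 was called higher at E12.5 versus E11.5 (8.12% of all features), 0 at E13.5 versus E12.5 (2.53%), 1 at E14.5 versus E13.5 (5.80%) and 1 at E14.5 versus E12.5 (7.94%), near the background for so short a list, and 0 were called lower in any comparison with TMM, while with plain totals 13 were lower at E14.5 versus E13.5 and 12 at E14.5 versus E12.5; the TMM medians were -0.01, -0.04, -0.14 and -0.09. The summed level was 2142 CPM at E11.5 and 2122, 2022 and 1851 on the 3 following days, and Trim28, the corepressor that Zfp57 brings to imprinted regions, was the most abundant in each library. Zfp57 had 1711, 1144, 1379 and 569 counts and Dnmt1, which copies methylation at replication, had 7380, 6741, 7808 and 3071. Dppa3, a germ cell protein that guards methylation in the early embryo, had 106, 1062, 1499 and 641 counts and rose, with a log2 ratio of 3.45 (3.16 to 3.75) at E12.5 versus E11.5; it is also on the germ cell list. Dnmt3l, the cofactor of new methylation in germ cells, had 0, 0, 2 and 29 counts.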

How the data were processed

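The authors used STAR for alignment to mm10, UMI-tools to drop duplicates and featureCounts to count reads per gene; the deposited values are these counts per feature, with RPKM and TPM computed from them by the authors. RPKM was not used here. Strand setting, annotation release and tool versions are not given in the sources used here. Scaling was by TMM (edgeR 4.0.16, R 4.3.3), with factors of 1.10, 1.23, 1.25 and 0.597, over 20114 features kept by filterByExpr. The log2 ratio had a prior count of 0.125 and a 95% Clopper-Pearson interval (scipy 1.17.1, Python 3.11.15); it was called at 1 or more in size with 0 outside the interval. With 1 library per time point the calls rest on no test, and at 0 counts the floor is 3 counts. The steps were tested on simulated data. All members were named; of the further imprinted genes and the imprint maintenance factors, genes called with 100 or more counts in the higher library were named, at most 5 a direction by size. Dnmt3l and Zfp57, Dnmt1 and the single markers were named after their values were seen. Members and lists were chosen with earlier results of these data known. Nespas, Snhg14 and Adgre1 were not analysed here, and 1 planned marker list is not reported. Alternatives were DESeq2 1.42.0 size factors, plain totals, TMM without 49 features (ribosomal RNA and the 10 most abundant of each library), TMM from each pair alone, no filter, 10 counts in both libraries, a prior of 2, the whole interval past the line, edgeR's exact test at preset dispersions, and ratios of TPM. Biotypes came from GENCODE M21 and RefSeq.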

Additional observations from a re-analysis of the deposited data

How the results depend on the processing

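None of the 12 called log2 ratios of the imprinted genes changed sign under the 6 settings that recompute single ratios (DESeq2 size factors, plain totals, both other TMM fits, a prior count of 2 and ratios of TPM), and 12 stayed past 2-fold under each of these except plain totals, with 10, and ratios of TPM, with 8; for Phlda2 and Ascl2, lower at E14.5 versus E13.5, these last settings put 34 of 35 members below 0 and say nothing. The counts of members called were within 1.5 times of the main ones with DESeq2 size factors, both other TMM fits, no filter and a prior count of 2. With plain totals, 26 members were called lower at E14.5 versus E13.5 and 18 at E14.5 versus E12.5, 0 were called higher at E14.5 versus E12.5, and the medians were -0.0591 at E12.5 versus E11.5, -1.22 at E14.5 versus E13.5 and -1.12 at E14.5 versus E12.5, beside the shift of all features given with the library totals. Of the further imprinted genes, 1 was then higher and 20 lower at E14.5 versus E13.5, and 3 higher and 12 lower at E14.5 versus E12.5; of the maintenance factors 13 and 12 were lower in those comparisons. With TMM and the filter on low counts both taken from the pair alone, 5 further imprinted genes were higher at E14.5 versus E12.5. With the exact test of edgeR, its dispersion set to 0.16, and an FDR of 0.05, 0 members were called higher or lower at E12.5 versus E11.5, 0 higher at E13.5 versus E12.5, 0 higher or lower at E14.5 versus E13.5 and 0 higher at E14.5 versus E12.5. At 0.01, 1 was lower at E14.5 versus E13.5 (Phlda2) and 1 higher at E14.5 versus E12.5 (Nnat). The 6 other counts of members called were within 1.5 times of the main ones at 0.01. With the whole interval past the 2-fold line, 1 was higher at E13.5 versus E12.5 (Slc22a18), 1 lower at E14.5 versus E13.5 (Phlda2) and 1 higher at E14.5 versus E12.5 (Nnat). The calls of Phlda2, Asb4 and Nnat at E12.5 versus E11.5 and of Nnat at E14.5 versus E13.5 also stayed. With 10 counts required in both libraries, 1 was higher at E14.5 versus E12.5 (Nnat), since Slc22a18 had 7 counts at E12.5. For the same reason the call of Slc22a18 at E13.5 versus E12.5 was lost. No paired analysis was possible because each time point has 1 library. Depth limits Ascl2, Slc22a18, Slc22a3, Rtl1 and the mature microRNAs.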

Other observations

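Features on the strand opposite to members were looked at after the members' values were seen. Igf2os, an antisense RNA that shares 98 exon bases with Igf2, had 857 counts at E11.5 and 273, 286 and 126 on the 3 following days, and its log2 ratio at E12.5 versus E11.5 was -1.52 (95% counting interval -1.73 to -1.33), beside -0.80 for Igf2. Peg3os had 2, 1, 1 and 1 counts, and Zim3, whose exons lie opposite 34.4% of the exon bases of Usp29, had 0, 3, 16 and 9.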
